A study of Mus musculus with 16 samples.

Results

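This comparison sets regulatory T cells (Tregs) that were CCR8- in the injured heart against Tregs that were CCR8+ in the mediastinal lymph node (MLN), the node that drains the chest. All cells came from Foxp3-GFP mice, which carry a green fluorescent reporter of Foxp3, at 8 weeks of age and 7 days after myocardial infarction (MI), so no group is without injury. Its 8 libraries, 4 of each group, are 8 of the 16 bulk RNA-seq libraries of the series and were taken by their labels. The comparison itself was chosen with earlier results of these data known. The other 8 libraries are heart CCR8+ and MLN CCR8- Tregs, again 4 of each. Each library was made from about 100 cells sorted first on magnetic beads and then by flow cytometry, and it is not stated that replicate libraries are from different animals, so the p-values measure the spread between libraries, which may be technical.

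Tregs suppress immune responses and depend on the transcription factor Foxp3. In injured tissue they can take on a repair program, known from muscle, skin, fat and heart, that includes the growth factor amphiregulin and the IL-33 receptor ST2. CCR8 is a chemokine receptor found on activated Tregs, mainly in tissues and tumours. The groups compared here differ in tissue and in the CCR8 sort at once, in opposite senses: the heart cells were sorted as CCR8- and the node cells as CCR8+. The question the comparison addresses is whether the tissue or the sort goes with the larger difference. The other pair of groups, heart CCR8+ against MLN CCR8-, shares no library with it. A gene that differs in the same direction in both pairs has a mean tissue difference larger than its mean CCR8 difference, and a gene that differs in opposite directions has the larger CCR8 difference.

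Values are the deposited levels, on a log2(FPKM + 1) scale, where FPKM corrects for gene length and sequencing depth. A difference is the mean level in heart CCR8- minus that in MLN CCR8+, in log2 units, and is given with its standard error (SE). Fold changes are on the log2(FPKM + 1) scale and understate the change of low genes. Genes were called at an adjusted p under 0.05 in limma's moderated test over the 10369 genes that reached an FPKM of 1 in 4 or more of the 16 libraries. The files hold no read counts, so the depth of each library is unknown. Libraries had between 10691 and 12704 genes above 0.

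Most genes called in both pairs had the same sign in each, so their tissue difference was the larger one. Between heart CCR8- and MLN CCR8+ Tregs 1546 of 10369 genes were called (14.9%), 826 higher (7.97%) and 720 lower (6.94%) in the heart cells. For 1946 genes (18.8%) all 4 libraries of one group lay above all 4 of the other. Between heart CCR8+ and MLN CCR8- Tregs 410 were called (3.95%), 282 higher (2.72%) and 128 lower (1.23%). In all, 208 genes were called in both pairs. Of these, 188 (1.81% of all genes tested) had the same sign, 152 higher and 36 lower in the heart cells of each pair, and 20 (0.193%) had opposite signs. Over all 10369 genes tested, called or not, the signs were less alike: 6056 genes (58.4%) had the same sign and 4307 opposite signs. The same-sign genes were 12.2% of the calls of the first pair and 45.9% of those of the second, and the opposite-sign genes 1.29% and 4.88%. These counts rested on single libraries of the second pair. With replicate 2, 3 or 4 of heart CCR8+ or replicate 3 of MLN CCR8- left out, the second pair had 218, 249, 236 and 263 calls. Same-sign genes numbered 107 without heart CCR8+ replicate 2, 114 without replicate 3, 112 without replicate 4 and 124 without MLN CCR8- replicate 3. Opposite-sign genes numbered 12, 10, 10 and 7 without heart CCR8+ replicates 1, 2, 3 and 4. Whichever library was left out, 87 of the 188 and 4 of the 20 kept both calls.

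Over all the genes called in the first pair the signs can be compared without a threshold in the second. Of the 826 genes higher in heart CCR8- Tregs, 626 (75.8%) also had a difference above 0 in the other pair, against 45.2% of all genes tested. Of the 720 lower genes, 461 (64.0%) had a difference below 0 there, against 54.8% of all genes tested. The median difference of the other pair was 0.63 over the higher genes and -0.21 over the lower genes, against -0.09 over all genes tested. Across the 10369 genes, which are not independent replicates, the differences of both pairs had a Pearson r of 0.368, as a description.

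**Figure D1:**
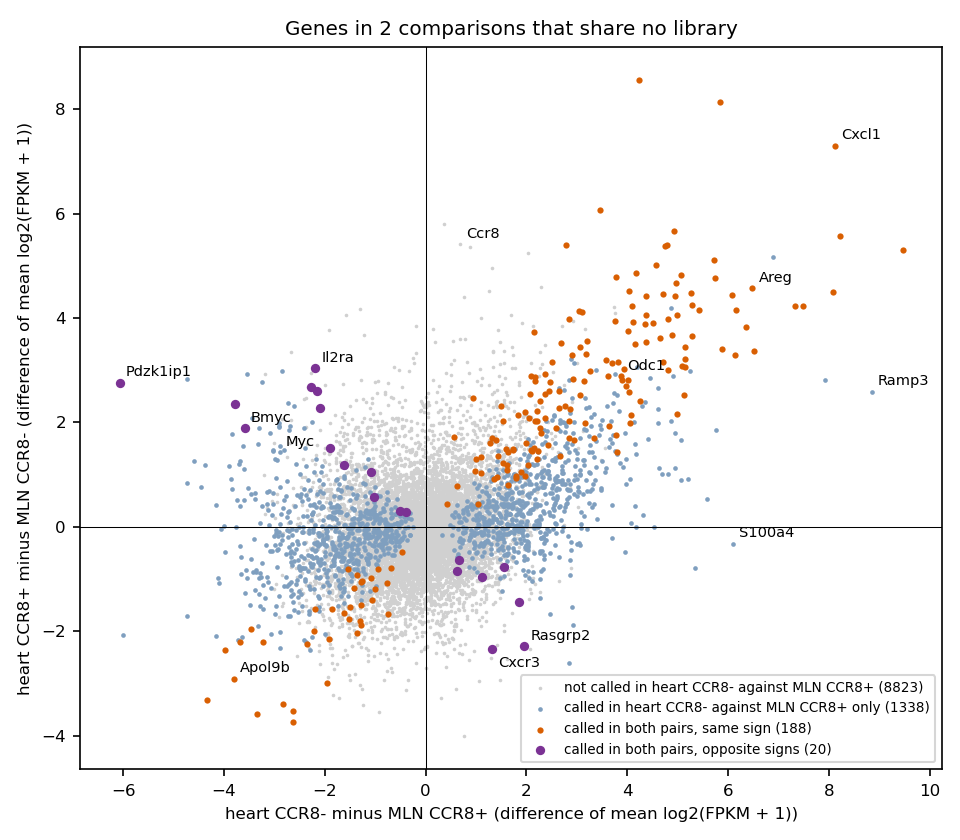
Each point is a gene, placed by its difference of mean log2(FPKM + 1) between heart CCR8- and MLN CCR8+ Tregs (x axis) and between heart CCR8+ and MLN CCR8- Tregs (y axis), with 4 libraries a group. The 188 orange genes, called in both pairs with the same sign, lie mostly at upper right, and the 20 purple genes with opposite signs at upper left and lower right.

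As whole profiles, the libraries of these groups were less alike than those of any other pair of groups. The median Pearson r over genes between a heart CCR8- and an MLN CCR8+ library was 0.777 (range 0.721 to 0.803, 16 pairs of libraries). It was 0.847 between heart CCR8- and heart CCR8+, 0.823 between MLN CCR8- and MLN CCR8+, 0.818 between heart CCR8+ and MLN CCR8-, 0.807 between the CCR8- groups and 0.799 between the CCR8+ groups. Within heart CCR8- it was 0.847, as with heart CCR8+, and within MLN CCR8+ it was 0.878. Without heart CCR8- replicate 3 it was 0.866 within heart CCR8- and 0.853 with heart CCR8+. The first principal component held 22.6% of the variance and placed the 8 heart libraries between -74.1 and -19.1 and the 8 MLN libraries between 10.4 and 74.0. The heart extremes were heart CCR8- replicate 3 at -74.1 and heart CCR8+ replicate 1 at -19.1. The other heart libraries lay between -55.4 and -40.3. Both extreme libraries also stood apart in markers of other cells, given below, and the part of those cells in this component was not tested.

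Markers of other cells moved with the groups and are given before the gene results. The T cell list was high in both groups, with a mean level over its 9 markers of 7.82 to 8.92 in heart CCR8- and 8.58 to 8.83 in MLN CCR8+ libraries. The fibroblast list of 12 genes had means of 3.57 to 5.48 in heart CCR8- and 0.01 to 0.56 in MLN CCR8+ libraries; Pdgfra, a defining receptor of fibroblasts, was at 0 in all 4 heart CCR8- libraries, and 6 of the 12 genes were at 0 in every MLN CCR8+ library. The macrophage list of 13 genes ran from 2.88 to 4.36 against 1.51 to 2.0. The cardiomyocyte list of 12 genes ran from 0.30 to 1.72 against 0.02 to 0.24. B cell markers went the other way, with means over 8 genes of 0.00 to 0.66 in heart CCR8- and 1.80 to 3.57 in MLN CCR8+ libraries. Heart CCR8- replicate 3 stood apart: its endothelial list mean was 5.76 against 0.54 to 1.48 in the other 3 heart CCR8- libraries, and its T cell list was the lowest of the 4. Without it 1302 genes were called (12.6%), 716 higher and 586 lower.

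Of the 9 T cell markers, Cd2 and Cd28 were called higher and Lck lower; Cd2 lost its call if replicate 1, 2 or 4 of heart CCR8- or replicate 1, 3 or 4 of MLN CCR8+ was left out. Among the lists of other cells, 10 of 11 tested fibroblast genes were called higher, with a median difference of 3.48 against -0.09 over all genes tested, as were 3 of 9 macrophage, 2 of 4 cardiomyocyte, 1 of 3 endothelial, 2 of 7 dendritic cell, 1 of 5 neutrophil and 1 of 4 cytotoxic T and NK cell genes. The dendritic cell list went mostly the other way, with a median difference of -1.49 and 5 of its 7 genes below 0. Of the cytotoxic T and NK cell genes 2 of 4 were below 0, with a median of 0.10. Of the neutrophil genes 1 of 5 was below 0, with a median of 0.62. Of 5 B cell genes 3 were called lower, and none of 4 erythroid genes was called. Over all genes tested 7.97% were called higher and 6.94% lower. Without heart CCR8- replicate 3 the calls were 9 of 11 fibroblast genes, 2 macrophage, 1 cardiomyocyte, 0 endothelial, 0 dendritic and 1 B cell. Single libraries moved these small counts: the macrophage count was 6 without heart CCR8+ replicate 1 and 5 without replicate 2, the B cell count 1 without replicate 1 of heart CCR8- or replicate 1 or 2 of MLN CCR8+, and the neutrophil count 0 without heart CCR8- replicate 2 or 4. The cardiomyocyte, endothelial and dendritic counts were 0 without heart CCR8- replicate 4 and 0 or 1 without any 1 MLN CCR8+ library; the cardiomyocyte count was also 1 without heart CCR8- replicate 1 or 2 or heart CCR8+ replicate 4, and the dendritic count 1 without replicate 1 or 2 of heart CCR8-, replicate 3 of heart CCR8+ or replicate 1 or 4 of MLN CCR8-. Their part in the results on other genes was not tested beyond the values given beside those results. In sorted bulk samples, fewer cells of a type and less RNA per cell cannot be told apart.

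**Figure D2:**
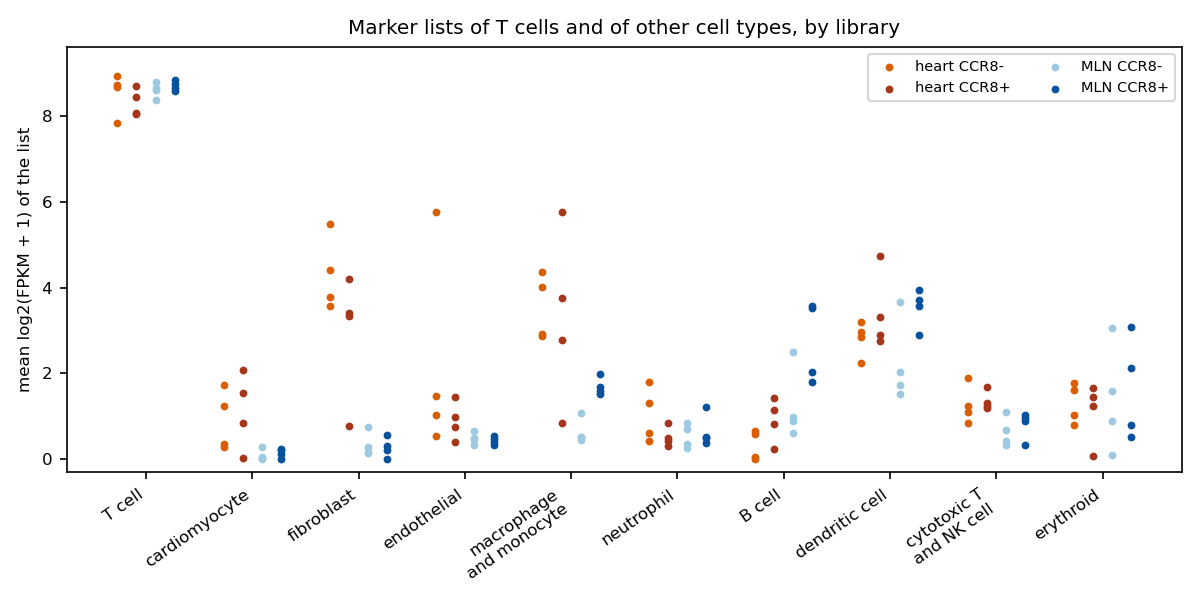
Points are libraries, coloured by group; the y axis is the mean log2(FPKM + 1) over the genes of each marker list. The fibroblast list lies between 3.57 and 5.48 in the 4 heart CCR8- libraries and at most at 0.56 in the 4 MLN CCR8+ libraries, while the T cell list lies between 7.82 and 8.92 in both.

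One heart library had few fibroblast and macrophage transcripts. Heart CCR8+ replicate 1 had a fibroblast list mean of 0.77 and a macrophage list mean of 0.84. Its cardiomyocyte (0.04), endothelial (0.42), neutrophil (0.30) and erythroid (0.08) list means also lay below all 4 heart CCR8- libraries. Its B cell list mean of 1.15 lay above all 4 heart CCR8- libraries. Its T cell (8.06), dendritic cell (2.76) and cytotoxic T and NK cell (1.23) means lay within their range. Its values are given beside only some of the genes below, and which cells those transcripts came from was not tested. This library belongs to the other sort, so its values are not levels in CCR8- cells.

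The sorted receptor itself did not follow its label across tissues at the RNA level. Ccr8 (chromosome 9, 120092114 to 120094906, GRCm38) was at levels of 8.56, 8.20, 8.73 and 8.33 in the heart CCR8- libraries and 7.39, 8.18, 7.48 and 8.06 in the MLN CCR8+ libraries. All 4 heart CCR8- values lay above the 4 MLN CCR8+ values, by a little, a lack of overlap seen for 18.8% of all genes tested. The difference was 0.68 (SE 0.29, adjusted p = 0.121) and did not pass. Heart CCR8+ libraries had a mean level of 10.01 and MLN CCR8- libraries 4.60, so within each tissue the CCR8+ sort had the higher mean. In the other pair, where heart and the CCR8+ sort go together, the Ccr8 difference was 5.41 (adjusted p = 8.37e-10).

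Of the 14 Treg identity genes tested, 4 were lower and none was higher in heart CCR8- Tregs, with a median difference of -0.62 against -0.09 over all genes tested. In the other pair 3 were higher and none lower, with a median of 0.66. Shares over all genes tested, for this list and those below, were 7.97% higher and 6.94% lower in this pair. They were 2.72% higher and 1.23% lower in the other pair. Foxp3 was at 5.06, 5.92, 5.01 and 5.46 in the heart CCR8- libraries and at 5.86, 5.45, 4.57 and 6.46 in the MLN CCR8+ libraries. These ranges overlapped, with a difference of -0.22 (SE 0.41, adjusted p = 0.774). Il2ra (chromosome 2, 11642807 to 11693193) encodes the high-affinity chain of the IL-2 receptor. It was at 5.21, 5.23, 3.59 and 4.07 in heart CCR8- and at 6.90, 6.80, 6.83 and 6.33 in MLN CCR8+ libraries, with no overlap, as for 18.8% of all genes tested. It fell 4.57-fold (log2 difference -2.19, SE 0.49, adjusted p = 0.0046). Izumo1r, the folate receptor FR4 of Tregs, was at 8.66, 8.14, 8.18 and 8.55 against 10.80, 10.92, 10.50 and 11.03 and fell 5.39-fold (adjusted p = 1.86e-05). Heart CCR8+ and MLN CCR8- means of Izumo1r were 8.37 and 8.47, so MLN CCR8+ was the group that stood apart. The receptor gene Gpr83 and the actin-capping gene Capg also fell, by 3.38 and 1.36 in log2 units. The co-stimulatory receptors Tnfrsf18 and Tnfrsf4 had differences of 0.03 and 0.21 that did not pass, beside 1.69 and 2.40 in the other pair.

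Tissue repair genes had the largest median difference of the 19 lists of gene functions, which were chosen with earlier results of these data known. Of 21 tested, 12 were higher in heart CCR8- Tregs and none was lower, with a median difference of 2.74. The other pair had 8 higher and none lower, with a median of 2.32. Amphiregulin, Areg (chromosome 5, 91139599 to 91148432), a growth factor of the EGF family, was at 7.69, 9.0, 6.56 and 7.93 in heart CCR8- and at 1.70, 2.90, 0.65 and 0.00 in MLN CCR8+ libraries. The groups did not overlap, as for 18.8% of all genes tested, and Areg rose 89.5-fold (log2 difference 6.48, SE 0.64, adjusted p = 2.73e-06). Il1rl1 (chromosome 1, 40429570 to 40465415), the IL-33 receptor ST2, was at 4.16, 6.0, 4.60 and 5.63 against 1.0, 1.79, 0.14 and 0.04. It rose 20.5-fold (adjusted p = 2.06e-05), again with no overlap. Rora (chromosome 9, 68653786 to 69388246), a nuclear receptor of tissue Tregs, was at 6.27, 7.12, 6.0 and 6.51 against 1.15, 2.0, 1.20 and 1.28 and rose 33.5-fold (adjusted p = 5.12e-06). Ramp3 (chromosome 11, 6658521 to 6677475), a co-receptor for adrenomedullin and calcitonin-gene peptides, was at 9.14, 9.68, 8.98 and 9.89 and was listed at 0 in 3 MLN CCR8+ libraries and at 2.29 in the fourth. Its log2 difference was 8.85 (SE 0.91, adjusted p = 4.34e-06).

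Other members of the repair list rose with them. The cytokine Il10 was at 9.10, 7.12, 7.14 and 7.18 against 3.75, 4.50, 5.08 and 0.00 and rose 19.7-fold (adjusted p = 0.00101). The transcription factor Gata3 rose 3.68-fold (adjusted p = 0.00274), with levels of 6.17 to 8.09 against 4.62 to 6.55 that overlapped. Calca, which encodes calcitonin and its related peptide, rose by 4.23 in log2 units in this pair and by 8.56 in the other. The matrix glycoprotein Spp1 was at 6.64, 6.63, 8.26 and 7.81 in heart CCR8- and listed at 0 in every MLN CCR8+ library (adjusted p = 3.96e-05). Spp1 was at 0.42 in heart CCR8+ replicate 1, the library with few fibroblast and macrophage transcripts, where Areg was at 8.69, Il1rl1 at 6.70, Rora at 6.10, Ramp3 at 8.17 and Il10 at 6.78. Pparg and Penk, members of the list, had differences of 0.67 and 0.88 that did not pass, beside 3.60 and 5.36 in the other pair, where they did. Tff1 was at 1.49 in heart CCR8- replicate 1 and at 0 in the other 7 libraries of the comparison, and at 4.84, 4.10, 7.98 and 6.28 in heart CCR8+.

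**Figure D3:**
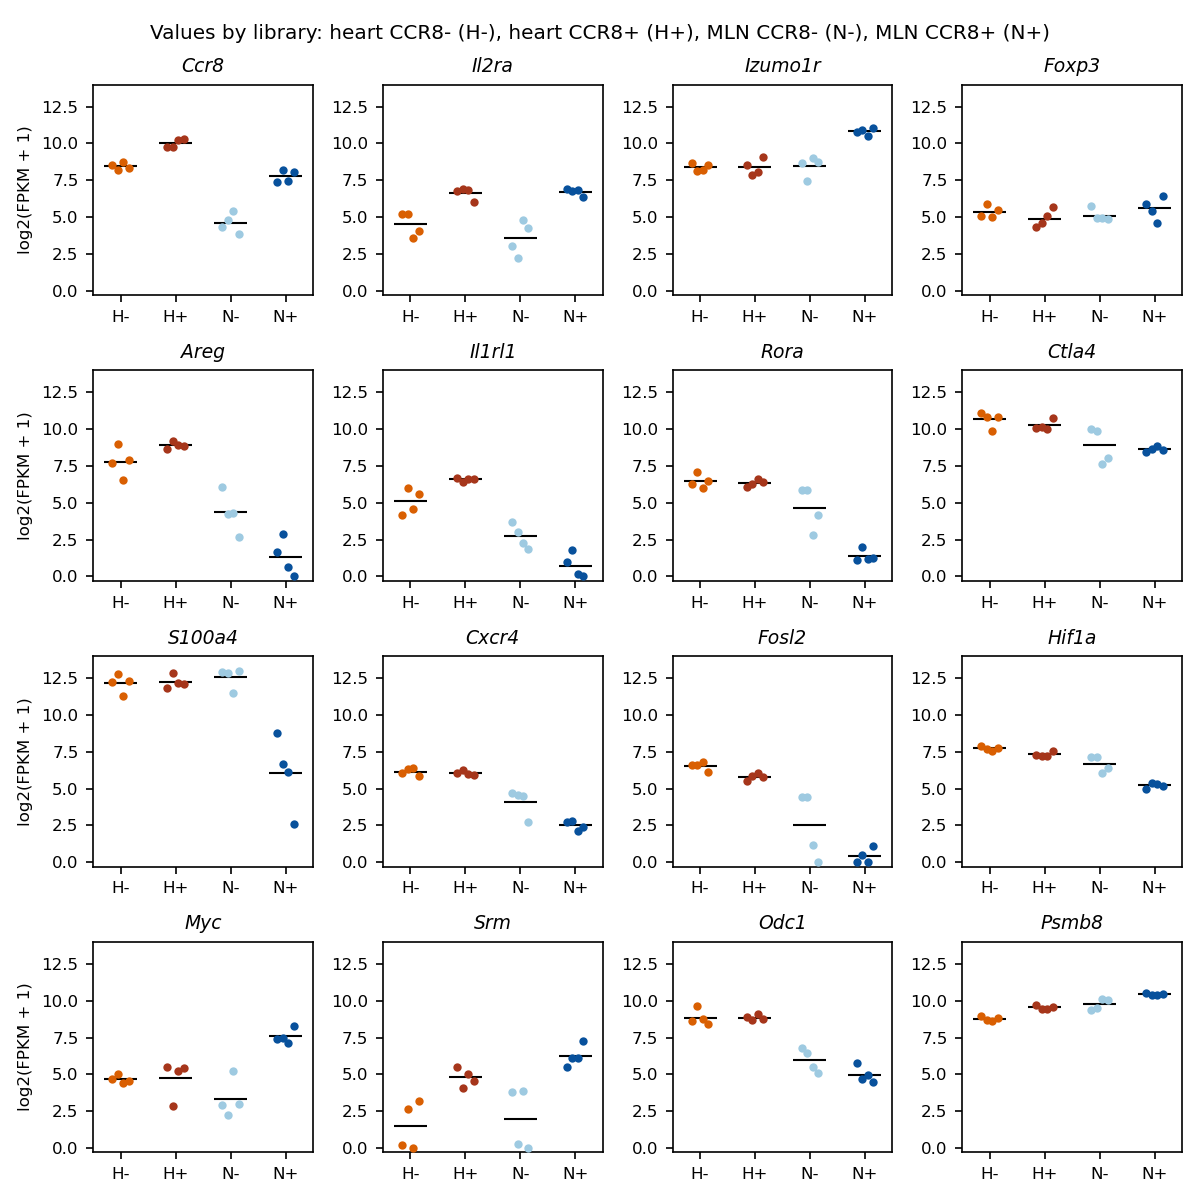
Levels of 16 genes in every library, as log2(FPKM + 1), with heart CCR8- as H-, heart CCR8+ as H+, MLN CCR8- as N- and MLN CCR8+ as N+; points are libraries and lines are means of 4. Areg, Il1rl1, Rora and Fosl2 are high in both heart groups, Ccr8 and Il2ra are higher in the CCR8+ sort of each tissue, and S100a4 is lowest in MLN CCR8+, at 2.59 to 8.76.

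Effector and checkpoint genes rose in part. Of 22 tested, 8 were higher and 1 was lower, with a median difference of 0.68. Tigit, an inhibitory receptor, was at 9.58, 9.72, 8.96 and 10.22 against 6.80, 7.06, 7.01 and 7.81 and rose 5.47-fold (adjusted p = 6.06e-06). Icos, a co-stimulatory receptor, was at 9.73, 9.38, 8.44 and 9.38 against 6.58, 7.16, 7.55 and 5.94 and rose 5.37-fold (adjusted p = 4.5e-05). Ctla4, the checkpoint receptor that Tregs use for suppression, was at 11.11, 10.82, 9.90 and 10.80 against 8.42, 8.63, 8.84 and 8.62 and rose 4.09-fold (adjusted p = 0.00196). Heart CCR8- and MLN CCR8+ did not overlap for any of the 3, as for 18.8% of all genes tested. Epas1, which encodes the hypoxia factor HIF-2 alpha, was at 2.74 to 5.25 against 0.00 to 0.16 and rose by 3.93 in log2 units (adjusted p = 0.000364). Batf and Tnfrsf9 had overlapping levels and differences of -0.23 (adjusted p = 0.679) and 0.15 (adjusted p = 0.825). Tnfrsf9, which encodes 4-1BB, differed by 3.79 in the other pair (adjusted p = 2.44e-06). Klrg1, a receptor of terminally differentiated Tregs, was at 5.84, 6.32, 0.04 and 7.22 against 3.33, 0.00, 5.06 and 0.05 and did not pass (adjusted p = 0.132); it passed if replicate 3 of either group was left out. The only lower member, Tnfrsf8 (CD30), lost its call if replicate 1, 2 or 4 of heart CCR8- or replicate 1 or 3 of MLN CCR8+ was left out.

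Genes of trafficking split by receptor. Of 16 tissue homing receptors tested, 6 were higher and 1 was lower in heart CCR8- Tregs, but 3 were higher without heart CCR8- replicate 4. Ccr2, the receptor for the monocyte chemoattractant CCL2, was at 7.48, 6.24, 4.34 and 7.27 against 2.40, 0.09, 1.99 and 0.02 and rose 37.0-fold (adjusted p = 1.7e-05). Cxcr4, the CXCL12 receptor, was at 6.06, 6.31, 6.43 and 5.83 against 2.76, 2.79, 2.12 and 2.41 and rose 12.5-fold (adjusted p = 8.69e-06). Ccr6, the CCL20 receptor, was at 4.14, 3.59, 3.30 and 4.46 against 6.88, 6.25, 6.76 and 6.68 and fell 6.81-fold (adjusted p = 0.00416). The groups did not overlap for any of these 3 receptors, as for 18.8% of all genes tested.

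Of the 20 genes of resting and recirculating T cells tested, 5 were higher and 2 lower in heart CCR8- Tregs, while in the other pair 1 was higher and 5 lower. S1pr1, the receptor that lets T cells leave tissue and nodes along sphingosine-1-phosphate, was at 8.23, 8.23, 8.22 and 8.44 against 5.56, 5.61, 4.47 and 6.02 and rose 7.29-fold (adjusted p = 0.000345). Klf2, a factor that drives S1pr1, rose 4.12-fold, from 5.10 to 6.09 in MLN CCR8+ to 7.25 to 8.47 in heart CCR8- libraries (adjusted p = 0.000493). The chromatin organizer Satb1 rose 8.47-fold (adjusted p = 0.0022) and Rasgrp2, a Rap1 activator, 3.89-fold (adjusted p = 0.00765). The survival gene Bcl2 fell by 1.96 in log2 units. Ccr7, which guides T cells into nodes, was at 8.60 to 10.81 in heart CCR8- and 8.91 to 9.68 in MLN CCR8+ libraries (adjusted p = 0.283), and Tcf7 did not pass either (adjusted p = 0.411).

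Of 16 S100, annexin and galectin genes, which encode calcium-, membrane- and sugar-binding proteins, 10 were higher and none lower in heart CCR8- Tregs, with a median difference of 1.57. In the other pair 1 was higher, with a median of -0.01. S100a4 (chromosome 3, 90603771 to 90606045) was at 12.21, 12.77, 11.31 and 12.28 in heart CCR8- and at 8.76, 6.67, 6.15 and 2.59 in MLN CCR8+ libraries. It rose 68.7-fold (log2 difference 6.10, SE 0.78, adjusted p = 3.29e-05) with no overlap, as for 18.8% of all genes tested. Its means were 12.24 in heart CCR8+ and 12.57 in MLN CCR8-, so of the 4 groups MLN CCR8+ was the low one. S100a6, its neighbour at 90612882 to 90624181, was at 9.85, 10.07, 10.15 and 9.54 against 5.98, 6.27, 5.71 and 3.53 and rose 23.1-fold (adjusted p = 1.53e-06), with means of 9.90 in both other groups. S100a11 rose 4.43-fold (adjusted p = 1.29e-06). Lgals3, which encodes galectin-3, was at 5.90, 5.22, 5.93 and 6.41 and was listed at 0 in 3 MLN CCR8+ libraries and at 3.22 in replicate 2 (adjusted p = 0.00151).

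Early response genes of the AP-1 group included higher members in both pairs. Of 19 tested, 14 were higher and none lower in heart CCR8- Tregs, with a median difference of 1.89. The other pair had 7 higher and none lower, with a median of 1.05. Fosl2 (chromosome 5, 32135801 to 32157842), a FOS family partner in AP-1, was at 6.60, 6.60, 6.80 and 6.14 against 0.02, 0.47, 0.00 and 1.10 and rose 70.5-fold (adjusted p = 1.94e-05). Klf6, a zinc-finger factor, was at 8.00, 8.34, 7.39 and 7.27 against 4.99, 3.01, 4.34 and 4.44 and rose 11.7-fold (adjusted p = 3.66e-06). The stress factor Atf3 was at 3.24, 4.60, 7.37 and 4.78, highest in replicate 3, and at most at 0.055 in MLN CCR8+ libraries (adjusted p = 0.000291). Junb rose by 2.35 and Dusp1, a phosphatase of MAP kinases, by 1.89 in log2 units. Fos and Jun had differences of 0.96 and -0.58 and did not pass. Tissue digestion is known to induce such genes. The list of 13 heat shock and dissociation genes had 4 higher members and a median difference of 0.51, and 1 lower member without MLN CCR8+ replicate 3. The higher members were the chaperone genes Hspb1 (difference 4.45), Dnajb4 (3.29) and Dnaja1 (1.61) and the co-chaperone gene Bag3 (3.06); Hspb1 lost its call without replicate 3 of either group. The part of cell isolation was not tested.

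NF-kB pathway genes had 6 higher and no lower members of 24, against 7.97% and 6.94% of all genes tested. Birc3 and Bcl10, among the 6, each kept their call in only 5 of the 16 fits that left out 1 library. The count was as low as 4 in these fits. The inhibitors Tnfaip3 and Nfkbia were also among the 6. Tnfaip3, which encodes A20, was at 8.84, 9.67, 8.48 and 8.50 against 4.23, 4.04, 4.31 and 5.27 and rose 21.2-fold (adjusted p = 6.86e-05). Nfkbiz, a nuclear regulator of NF-kB, rose 7.16-fold (adjusted p = 9.18e-05) and Nfkbia, which encodes the inhibitor I kappa B alpha, 3.02-fold (adjusted p = 3.05e-05). The subunits Nfkb1, Nfkb2, Rela and Relb had differences of 0.35, 0.21, 0.37 and 0.74 that did not pass, while Rel, counted in the T cell receptor list, rose by 2.51 in log2 units.

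Genes induced by T cell receptor signals moved both ways. Of 23 tested, 7 were higher and 3 lower, with a median difference of 0.10, while the other pair had 7 higher, none lower and a median of 1.47. Over all genes tested 7.97% were higher and 6.94% lower, and in the other pair 2.72% and 1.23%. Nr4a3, an orphan nuclear receptor, was at 5.59, 6.33, 5.79 and 5.69 against 4.27, 2.87, 0.69 and 3.32 and rose 8.36-fold (adjusted p = 0.00351). Dusp5, a phosphatase of ERK, rose 8.88-fold (adjusted p = 0.00324). Egr2 fell 8.85-fold (adjusted p = 0.02), though not if replicate 1 of either group or replicate 2 of MLN CCR8+ was left out. Myc (chromosome 15, 61985391 to 61990374), which drives growth and ribosome production, was at 4.72, 5.03, 4.42 and 4.58 against 7.39, 7.48, 7.15 and 8.29. It fell 7.43-fold (log2 difference -2.89, SE 0.59, adjusted p = 0.00231), with no overlap, as for 18.8% of all genes tested.

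Growth genes were the lists with the most lower members, among lists chosen with earlier results of these data known. Of 25 Myc and ribosome biogenesis genes 15 were lower and 1 was higher, with a median difference of -1.11; the other pair had 4 higher, none lower and a median of 0.73. Srm (chromosome 4, 148591503 to 148594993), spermidine synthase, was at 0.23, 2.65, 0.01 and 3.16 against 5.49, 6.14, 6.13 and 7.24 and fell 26.7-fold (adjusted p = 0.0011). Bmyc, a Myc relative, was at 6.82, 6.86, 5.88 and 3.89 against 9.34, 9.33, 9.33 and 9.80 and fell 12-fold (adjusted p = 3.96e-05). The pseudouridine synthase gene Dkc1 fell 4.64-fold (adjusted p = 0.00197). Odc1, ornithine decarboxylase, the enzyme before Srm in polyamine synthesis, went the other way: it was at 8.63, 9.62, 8.74 and 8.40 against 5.74, 4.71, 4.96 and 4.50 and rose 14.6-fold (adjusted p = 1.29e-06). Odc1 rose in the other pair too, by 2.89 in log2 units.

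Promoter sequences are shown for 5 called genes, picked because they hold a motif. The AP-1 and Myc groups moved in opposite directions in this pair, and each family of factors has a known binding motif. The genes shown for AP-1, Gzmb and Tnfaip3, are from the granule and NF-kB lists, not the AP-1 list. The promoters run from 250 bases before to 50 after the start, from RefSeq on GRCm38.p6, and 8338 of the 10369 genes tested had an entry. The AP-1 motif TGANTCA, searched on both strands, was in the promoter of 493 of these 8338 genes (5.91%), in 54 of 629 called higher (8.59%) and in 30 of 582 called lower (5.15%). It was in 1 of 18 AP-1 list genes and in 0 of 14 tissue repair genes with an entry. The E-box CACGTG, which Myc and related factors bind, was in 12% of all genes tested with an entry, in 13.4% of those called higher and 14.1% of those called lower. It was in 7 of 20 Myc and ribosome biogenesis genes (35%), of which 4 were called lower; 1 of these, Apex1, lost its call without any of 13 of the 16 libraries. The TCF/LEF motif CTTTGNT was in 16.4%, 14.3% and 14.8%. These matches are descriptions of letters in a window.

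In the genes called higher, capitals mark the AP-1 motif in the promoter, read 5′ to 3′ on the strand of the gene.
Gzmb (chr14:56262285-56262584, minus strand): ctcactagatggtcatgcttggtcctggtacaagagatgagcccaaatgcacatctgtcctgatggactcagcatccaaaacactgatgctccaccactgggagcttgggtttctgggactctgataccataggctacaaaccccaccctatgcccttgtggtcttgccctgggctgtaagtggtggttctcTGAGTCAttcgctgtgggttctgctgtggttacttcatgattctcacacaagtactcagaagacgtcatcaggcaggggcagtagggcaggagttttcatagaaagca
Tnfaip3 (chr10:19015361-19015660, minus strand): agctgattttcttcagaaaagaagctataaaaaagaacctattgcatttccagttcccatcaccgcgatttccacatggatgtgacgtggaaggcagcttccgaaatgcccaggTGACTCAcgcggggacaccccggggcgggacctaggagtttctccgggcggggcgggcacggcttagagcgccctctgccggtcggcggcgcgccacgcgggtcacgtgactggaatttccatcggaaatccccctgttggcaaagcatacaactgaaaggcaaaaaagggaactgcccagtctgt
The levels of Tnfaip3 are given above and those of Gzmb, granzyme B, with the granule genes, and Tnfaip3 has another listed promoter without the motif. The printed Tnfaip3 promoter also holds an E-box, left in lower case.

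In genes called lower from the Myc and ribosome biogenesis list, capitals mark the E-box. The printed Nme1 promoter also holds an AP-1 motif, left in lower case, so 2 of the 5 promoters carry both motifs. Eif5a has 6 listed promoters, of which 3 hold the E-box, and 1 of these is shown. Nme1, a nucleoside diphosphate kinase, was at 7.79, 7.72, 8.05 and 7.73 in heart CCR8- against 9.07, 8.92, 8.95 and 9.02 in MLN CCR8+ libraries (log2 difference -1.17, adjusted p = 6.11e-05). Ran, the small GTPase of nuclear transport, was at 7.36, 7.47, 7.36 and 7.24 against 8.68, 8.28, 8.38 and 8.54 (log2 difference -1.11, adjusted p = 0.000723). Eif5a, a translation factor that carries a modification made from spermidine, was at 9.45, 9.56, 9.38 and 9.69 against 10.72, 10.21, 10.32 and 10.66 (log2 difference -0.96, adjusted p = 0.000102). None of them overlapped between the groups, as for 18.8% of all genes tested.
Nme1 (chr11:93968223-93968522, minus strand): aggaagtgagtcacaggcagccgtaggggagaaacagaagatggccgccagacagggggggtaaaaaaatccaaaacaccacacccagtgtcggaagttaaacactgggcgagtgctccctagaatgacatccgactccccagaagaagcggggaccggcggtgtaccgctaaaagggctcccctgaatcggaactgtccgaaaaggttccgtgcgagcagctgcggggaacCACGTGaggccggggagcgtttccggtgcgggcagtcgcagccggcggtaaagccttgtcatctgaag
Ran (chr5:129019906-129020205, plus strand): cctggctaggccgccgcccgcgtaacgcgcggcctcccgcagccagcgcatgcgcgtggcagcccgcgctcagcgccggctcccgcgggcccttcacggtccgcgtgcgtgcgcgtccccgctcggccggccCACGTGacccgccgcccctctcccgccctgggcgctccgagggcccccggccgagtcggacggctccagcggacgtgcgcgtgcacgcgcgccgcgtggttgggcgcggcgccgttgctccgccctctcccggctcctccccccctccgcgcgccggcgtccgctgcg
Eif5a (chr11:69921337-69921636, minus strand): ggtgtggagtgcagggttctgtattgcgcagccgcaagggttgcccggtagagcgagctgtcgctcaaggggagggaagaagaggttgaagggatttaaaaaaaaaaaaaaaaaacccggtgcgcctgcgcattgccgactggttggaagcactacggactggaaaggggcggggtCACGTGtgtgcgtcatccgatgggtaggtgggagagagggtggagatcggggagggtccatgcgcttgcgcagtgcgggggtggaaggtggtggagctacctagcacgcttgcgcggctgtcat

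Of 34 cytosolic ribosomal protein genes 20 were lower and none higher, with a median difference of -0.37 and a median of -0.02 in the other pair. Rps2 was at 10.84, 11.16, 10.92 and 11.21 against 12.08, 12.15, 11.79 and 12.24 and fell 2.04-fold (adjusted p = 1.94e-05), and Rpl3 fell 1.98-fold (adjusted p = 0.000296). These genes have many near-identical pseudogenes, and the sources do not say how reads were shared among them, so single members are uncertain. Of 25 cell cycle genes 6 were lower, among them the replication helicase gene Mcm7, at 2.20 to 3.02 against 4.76 to 5.88 (6.38-fold, adjusted p = 0.000574), and Cdk4. Mki67 and Top2a, markers of dividing cells, had differences of -0.07 each and did not pass. Cdkn1a, the cell cycle inhibitor p21, was at 6.71, 7.65, 8.10 and 7.50 in heart CCR8- and listed at 0 in every MLN CCR8+ library (adjusted p = 3.46e-07). Of 22 oxidative phosphorylation genes 5 were lower, by at most 1.21 in log2 units. Beside these cell cycle and oxidative phosphorylation counts, 6.94% of all genes tested were lower.

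**Figure D4:**
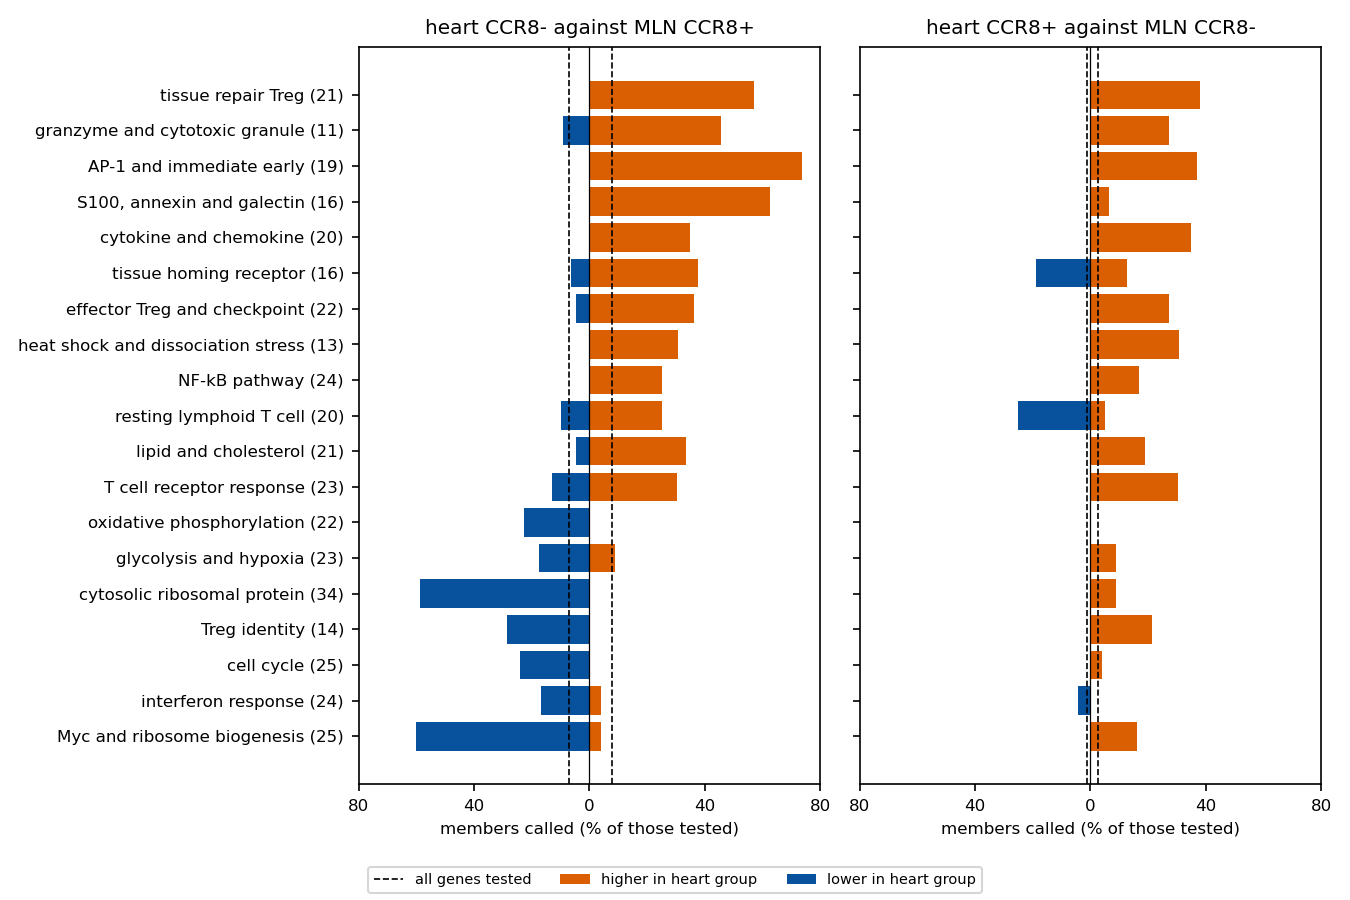
Bars give the share of each list's tested genes called higher (orange, right) or lower (blue, left) in the heart group, for heart CCR8- against MLN CCR8+ (left panel) and heart CCR8+ against MLN CCR8- (right panel); list sizes are in parentheses, and dashed lines mark all genes tested, at 7.97% and 6.94% in the left panel. Tissue repair and AP-1 bars point right in both panels, while the Myc and ribosome biogenesis and ribosomal protein bars point left in the left panel only.

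Of 23 glycolysis and hypoxia genes 2 were higher and 4 lower, against 7.97% and 6.94% of all genes tested. Only 1 was lower if replicate 1 or 3 of heart CCR8- or replicate 4 of MLN CCR8+ was left out. The lower count was 2 if replicate 1 of MLN CCR8+ was left out. The higher count was 1 if replicate 1, 2 or 4 of heart CCR8- or replicate 1 or 3 of MLN CCR8+ was left out. Hif1a, which encodes the hypoxia factor HIF-1 alpha, was at 7.89, 7.71, 7.56 and 7.75 against 4.99, 5.38, 5.30 and 5.20 and rose 5.69-fold (adjusted p = 2.73e-06), while the glycolytic enzyme gene Eno1 fell 2.83-fold (adjusted p = 0.000469). Of 24 interferon response genes 4 were lower and 1 was higher, against 6.94% and 7.97% of all genes tested. The higher gene, Irf1, lost its call if replicate 2 or 4 of heart CCR8- or replicate 1 of MLN CCR8+ was left out. Psmb8, an immunoproteasome subunit, was at 8.94, 8.66, 8.65 and 8.81 against 10.51, 10.39, 10.41 and 10.46 and fell 3.20-fold (adjusted p = 1.29e-06), beside its neighbour Psmb9 at 3.30-fold and Usp18, a brake on interferon signals, at 17.3-fold. Of 21 lipid genes 7 were higher and 1 lower, Cpt1a, which lost its call without any of 11 of the 16 libraries. Dgat1, which makes triglycerides, was at 7.57, 9.27, 7.87 and 8.16 against 3.98, 1.44, 0.07 and 1.30 and rose 91.6-fold (adjusted p = 3.5e-05).

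Cytokines, granule genes and the largest differences included products typical of other cells. Of 20 cytokines and chemokines 7 were higher and none lower. Cxcl1, a neutrophil attractant, was at 7.57, 6.68, 9.61 and 8.64 in heart CCR8- and listed at 0 in every MLN CCR8+ library (adjusted p = 1.29e-06), and Cxcl2 was at 7.57, 6.57, 8.57 and 7.14 against 3.55, 0.00, 2.87 and 0.06. In heart CCR8+ replicate 1, with few fibroblast and macrophage transcripts, Cxcl2 was at 7.37. Of 11 granzyme and granule genes 5 were higher and 1 was lower. Gzmb, the protease granzyme B, was at 8.47, 5.97, 7.83 and 9.41 and listed at 0 in every MLN CCR8+ library (adjusted p = 8.69e-06); it was at 7.54 in heart CCR8+ replicate 1. The matrix genes Mgp and Sparc, both in the fibroblast list, were at 8.04 to 12.03 and 6.99 to 10.80 in heart CCR8- and listed at 0 in every MLN CCR8+ library, and at 0.60 and 0.57 in heart CCR8+ replicate 1. The fatty acid carrier Fabp4 was at 5.67, 6.70, 12.11 and 8.39, highest in heart CCR8- replicate 3, and also listed at 0 in MLN CCR8+. In the other direction Cd79a, a B cell receptor subunit, was at 7.80, 7.16, 6.09 and 4.56 in MLN CCR8+ and at most at 1.51 in heart CCR8- libraries (adjusted p = 0.000205), and Pdzk1ip1 was at 7.45, 5.70, 5.35 and 5.96 and at most at 0.18 (adjusted p = 2.08e-05).

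The 20 genes called in both pairs with opposite signs are those whose CCR8 difference was the larger. For 13, heart CCR8- was lower than MLN CCR8+ and heart CCR8+ higher than MLN CCR8-, and for 7 the reverse. Il2ra, Rasgrp2, Mif and Ifi27l2a kept both calls whichever library was left out. Il2ra means were 6.63 in heart CCR8+ and 6.72 in MLN CCR8+, against 4.52 in heart CCR8- and 3.59 in MLN CCR8-. Mif, which encodes a cytokine, fell by 1.07 in this pair (adjusted p = 0.000669) and rose by 1.05 in the other (adjusted p = 0.0028). Rasgrp2 rose by 1.96 and differed by -2.29 in the other pair (adjusted p = 0.00883), and Ifi27l2a, an interferon-induced gene, rose by 0.62 and differed by -0.85. Rps2 kept both calls except without heart CCR8+ replicate 4. Nhp2, which works with Dkc1 in ribosome biogenesis, kept them except without heart CCR8+ replicate 2 or 3, and the chemokine receptor Cxcr3, higher in the CCR8- sort of both tissues, except without replicate 1 or 4 of heart CCR8- or replicate 2 or 4 of MLN CCR8+. The other 13 lost a call without at least 1 library of the second pair.

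**Figure D5:**
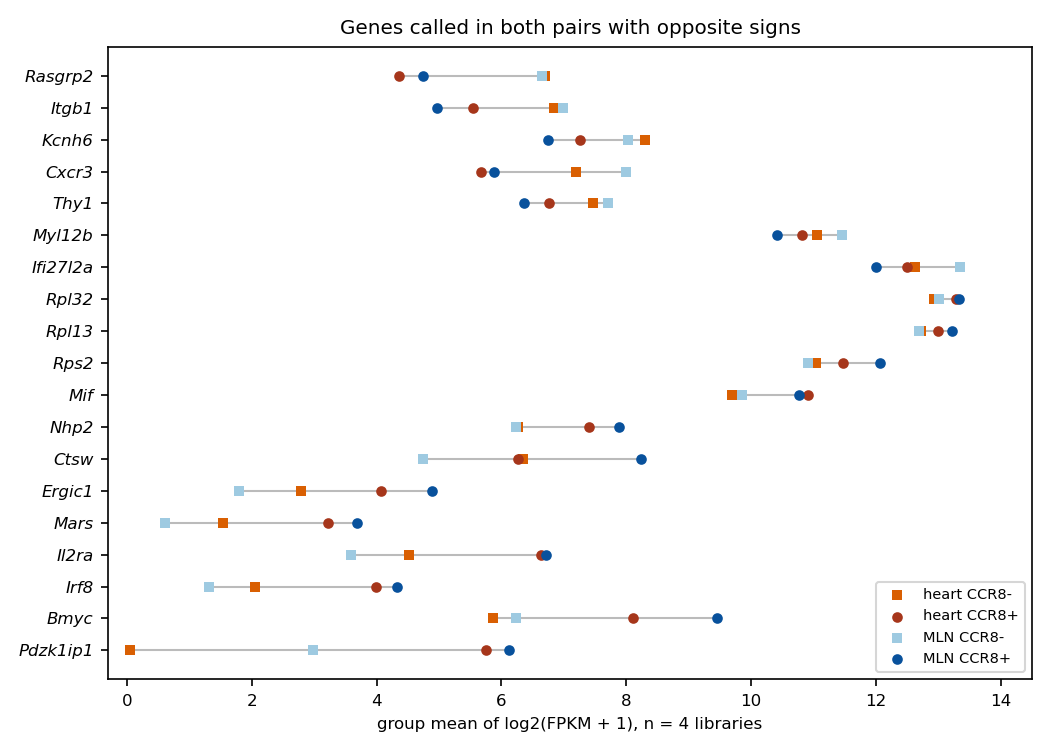
Group means of log2(FPKM + 1), 4 libraries each, for 19 of the 20 genes called in both pairs with opposite signs (a gene with only a clone name is left out); squares are CCR8- and circles CCR8+ groups, orange and red for heart, light and dark blue for MLN. In each row except Ctsw the CCR8- squares of both tissues lie on one side and the CCR8+ circles on the other, as for Il2ra at 3.59 and 4.52 against 6.63 and 6.72.

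Among genes called in both pairs with the same sign, Areg, Il1rl1, Cxcl2, Cxcr4, Epas1, Cdkn1a and Odc1 kept both calls whichever library was left out. Dcn, a fibroblast marker, also kept them, as did Fabp4, Mfap4, Cthrc1 and Tyrobp, which is in the cytotoxic T and NK cell list. The lower ones that did so included the selenoprotein gene Selenoo, at 0.00, 0.18, 0.00 and 0.93 in heart CCR8- against 1.64, 4.38, 2.56 and 3.84 in MLN CCR8+ (7.09-fold, adjusted p = 0.0033), and Apol9b, at 1.38, 1.81, 3.05 and 2.74 against 6.01, 5.80, 5.52 and 6.87 (14-fold, adjusted p = 3.8e-05). Apol9b has a close copy in the genome, so its value is uncertain. More genes of the lists of other cells were among the 188. Mgp, Sparc, Postn and Lum (fibroblast) and C1qb and Cd14 (macrophage) lost a call without heart CCR8+ replicate 2 or 4.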

How the data were processed

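The deposited table gives 1 value per gene and library for 16 bulk RNA-seq libraries, whose columns carry an FPKM name. The values are the authors' own and are read here as log2(FPKM + 1) because of their range; no source used here gives the log step. Every library has the same highest value, 14.9, and the values without the log sum to between 1007109 and 1007347, so the authors' levels look quantile-normalized, which would remove differences between libraries in the overall distribution. Per the submitters' processing notes, HISAT2 2.0.5 and featureCounts 1.5.0-p3 were used with mm10 (GRCm38), and per the labels' protocols the libraries were made with a NEBNext Ultra kit. No source used here gives the strand setting or the treatment of reads shared between genes. No read counts were used, so depth and counting error are unknown.

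Of 19219 rows, 24 with dates as names were left out, which left 19195 genes, 1966 of them at 0 in all libraries. The 10369 genes that reached an FPKM of 1 in 4 or more libraries were fitted with limma 3.58.1 in R 4.3.3, as 4 group means over 16 libraries with a trended prior, 12 residual degrees of freedom and 7.01 prior degrees of freedom, and p-values were Benjamini-Hochberg adjusted over all 10369. A pseudocount of 1 is part of the deposited scale. The scripts were tested on simulated data. The design had foreseen unlogged FPKM and the same test was used. Groups came from the labels. It is not stated whether replicate numbers pair the libraries, and the main fit did not pair them. Deviations of same-numbered libraries of different groups correlated between -0.0933 and 0.0589 over 24 pairs. Differently numbered libraries were not compared, so these values cannot exclude pairing.

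The comparison, the genes and the 29 lists (19 of function, 10 of cell type, 526 genes, of which 519 were in the table) were chosen with earlier results of these data known. The rule for named genes took 15 genes by name, such as Ccr8 and Foxp3; the 10 called genes per direction with the largest difference and no overlap between groups; up to 4 called genes of largest difference from each function list; and, of genes called in both pairs, the 8 per direction with opposite signs and the 5 per direction with the same sign whose smaller difference was largest, passing over clone names. Other list members and markers named in the text were chosen with their values in view. Alternatives were another pseudocount (0.1), no filter, a filter at an FPKM of 5, median-of-ratios scaling, a fit to the compared groups alone, a replicate block, array weights and leaving out each library. List counts without heart CCR8- replicate 3 were added after seeing the data.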

Additional observations from a re-analysis of the deposited data

Results flagged for a closer look

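In 33 of 294 groups of 4 libraries, 1 library lay farther from the other 3 than Dixon's critical value allows. For normally distributed values, chance alone flags about 1 in 20 groups, or 14.7 here. Where the other 3 libraries were at 0, a library was flagged at any level, as for Atf3 (0.055) and Lgmn (0.13) in MLN CCR8+. The 33 therefore cannot be read as an excess over 14.7. All values are levels in log2(FPKM + 1), and no cause of any of them was tested.

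In heart CCR8- Tregs, replicate 3 was high for Sparc (10.8), Ctsl (8.86), Galk1 (3.33) and Pdzk1ip1 (0.18) and low for Batf (7.55), Tnfrsf9 (7.14), Gpr83 (1.01) and the mean of the tissue homing receptor list (3.87, with the other 3 between 5.15 and 5.22). Replicate 1 was high for Il10 (9.10) and Eef1akmt4 (3.43) and low for the chemokine gene Ccl4 (4.75). Replicate 2 was high for Gpr34 (2.02) and Gbp5 (0.98). Replicate 4 was high for Nudt22 (3.52), Cd79a (1.51) and S1pr1 (8.44) and low for Usp18 (0.24).

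In MLN CCR8+ Tregs, replicate 2 was high for Itgb1 (6.16), Insig1 (3.98), Lgals3 (3.22), Dcn (2.33), Rora (2.0), Ccl3 (1.98), Epas1 (0.16) and Atf3 (0.055). Replicate 4 was high for Bmyc (9.80), Ramp3 (2.29), Ier3 (2.14), Ccl4 (0.14) and Lgmn (0.13) and low for the mean of the S100, annexin and galectin list (5.56, with the other 3 between 6.61 and 6.69). Replicate 3 was low for Capg (8.81), and replicate 1 was high for the mean of the neutrophil list (1.22).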

How the results depend on the processing

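The count of genes called between heart CCR8- and MLN CCR8+ Tregs, 1546, stayed within 1.5 times under all 23 alternatives, from 1186 without MLN CCR8+ replicate 1 to 1584 without MLN CCR8- replicate 1. It was 1478 with a pseudocount of 0.1, 1215 with no filter on low values (17229 genes tested), 1566 with an FPKM filter of 5, 1549 with median-of-ratios scaling, 1309 in a fit to these groups alone, of which 1201 were also called in the same direction in the fit of all groups, and 1571 with array weights. The share of called genes that were higher ranged from 52.1% to 56.6%. The counts that involve the second pair depended more on the setting. With no filter, where more genes are tested, the second pair had 240 calls, with 102 same-sign and 8 opposite-sign genes. In fits to the compared groups alone there were 123 same-sign and 11 opposite-sign genes. Leaving out each library gave 218 to 475 calls in the second pair, 107 to 199 same-sign genes and 7 to 26 opposite-sign genes. Causes beyond the number of genes or libraries were not tested. No named gene that was called changed sign. Of those that did not pass, Foxp3 ran from -0.558 to 0.0725 over the left-out libraries, above 0 without MLN CCR8+ replicate 4. Batf ran from -0.380 to 0.0709, above 0 without heart CCR8- replicate 3 and, at 0.0043, without MLN CCR8+ replicate 4. Tnfrsf9 ran from -0.111 to 0.374, below 0 without MLN CCR8+ replicate 3. The median of the T cell receptor list was -0.02 with array weights and -0.09 without MLN CCR8+ replicate 4, and that of the glycolysis and hypoxia list 0.01 without heart CCR8- replicate 2 and 0.13 without MLN CCR8+ replicate 2. Of 111 called named genes, 93 kept their call in every alternative and 94 whichever library was left out; of 437 medians of lists under the alternatives, 15 moved by more than the spread between replicates. Depth is unknown, so no limit of detection can be given for genes listed at 0.

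With the replicate number as a block, 1464 genes were called between heart CCR8- and MLN CCR8+ Tregs, 763 higher and 701 lower. It is not stated whether the numbers pair the libraries, so the block has no stated basis in the design.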
